A study of Mus musculus with 6 samples.

Results

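Tetraspanins are a family of small membrane proteins, and 3 of them, CD9, CD63 and CD81, marked the extracellular vesicles (EVs) that were injected in this experiment. The family was taken as every row of the deposited table whose symbol is Tspan followed by a number, or Cd9, Cd37, Cd53, Cd63, Cd81, Cd82 or Cd151, which gave 27 of 24054 rows. Of these, 26 had a mean signal of at least 1 over the 6 libraries and were tested, among 14159 tested genes. RNA was sequenced from whole lungs of female SCID mice, which carry an inherited defect in making B and T lymphocytes, 3 mice per group. In the Tsc1-null EV group the labelled, injected vesicles came from E15.5 mouse neural progenitors that lack Tsc1, which with TSC2 holds the growth kinase mTORC1 in check. In the WT EV group they came from wild-type progenitors. All 6 mice were given vesicles by tail vein, then rat ELT3 cells (an established uterine leiomyoma line that lacks Tsc2) intravenously after 48 h, and lungs were taken 72 h later. The labels name no Tsc1 mutation in the lungs themselves. The age of the mice is not stated in the labels, no lungs without vesicles were analysed here, and rat and mouse reads are not separated in the table.

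Tetraspanins cross the membrane several times and hold a large extracellular loop through which they gather integrins, proteases and receptors into membrane domains. CD9 and CD81 sit mainly at the cell surface, while CD63 cycles through late endosomes and lysosomes, and all are enriched on vesicles that cells release. Mice without both Cd9 and Cd81 are known to develop enlarged air spaces. The values here are lung transcripts, so the tetraspanin protein carried in by the vesicles was not measured.

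The libraries held 5101413 to 9358820 reads assigned to genes. Signal is in TMM-normalized CPM, reads scaled to the size of each library. Tsc1-null EV replicate 1 and WT EV replicate 2 stood apart, with a median correlation to the other libraries of 0.942 and 0.963, against 0.980 to 0.982 for the remaining 4. The nuclear RNA Malat1 stood at 30060 and 15673 CPM in these libraries, against 1609 to 2819 CPM elsewhere. Members whose direction turned without both of these libraries are given with and without them. The epithelial markers of lung were present in every library, with Sftpc, Sftpb, Scgb1a1, Nkx2-1, Epcam and Cdh1 summing to 90122 to 110074 CPM in Tsc1-null EV lungs and 69201 to 90596 CPM in WT EV lungs. In bulk lung, fewer cells of a type and less RNA per cell cannot be told apart. Nothing in the labels ties the mice to separate litters or days, so p-values measure the spread between these samples.

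Of the vesicle markers, Cd63 separated the groups, with every Tsc1-null EV lung above every WT EV lung, while Cd9 and Cd81 overlapped between the groups. Among all tested genes 6.86% were likewise higher in all 3 Tsc1-null EV lungs. Cd63 had 378, 413 and 310.1 CPM in Tsc1-null EV lungs, against 291, 235 and 261 CPM in WT EV lungs. The lowest Tsc1-null EV lung lay just above the highest WT EV lung. The means were 367 ± 52.3 CPM and 263 ± 27.9 CPM (SD, n = 3 each), a log2 fold of 0.48 ± 0.17 (SE, of value + 1), and the 95% interval ran from 0.09 to 0.86. With limma the Benjamini-Hochberg adjusted p over all genes was 0.721, so Cd63 did not pass the threshold of 0.05. The exact two-sided permutation p was 0.1, the smallest that 3 against 3 libraries allow. The log2 fold of Cd63 was 0.37 without both libraries that stand apart and lay between 0.39 and 0.59 with any 1 library left out. Between 1602 and 3829 reads stood behind each value, a counting error of at most 2.5%, which covers counting only.

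Cd9 had 470.5, 633 and 591 CPM in Tsc1-null EV lungs, against 552, 459 and 578 CPM in WT EV lungs. The lowest lung of each group was the library that stands apart, and the groups overlapped. The log2 fold was 0.09 ± 0.18, with a 95% interval from -0.33 to 0.51 (limma adjusted p = 0.946). Cd81 had 130.3, 335 and 350.4 CPM in Tsc1-null EV lungs, against 293, 249 and 299.8 CPM in WT EV lungs. Tsc1-null EV replicate 1 was far below every other lung, and the other 2 of its group lay above all WT EV lungs. Its log2 fold was -0.17 ± 0.35, with a 95% interval from -0.96 to 0.62 (limma adjusted p = 0.944). Without Tsc1-null EV replicate 1 it was 0.29, and without both libraries that stand apart it was 0.21, so the direction of Cd81 rests on 1 library. The log2 ratio of Cd63 to Cd81 within a library was 1.54, 0.30 and -0.18 in Tsc1-null EV lungs, against -0.01, -0.08 and -0.20 in WT EV lungs. That of Cd63 to Cd9 was -0.32, -0.62 and -0.93 in Tsc1-null EV lungs, against -0.92, -0.96 and -1.15 in WT EV lungs. The last Tsc1-null EV lung lay among the WT EV lungs in both ratios. Of the summed signal of all 27 members, these 3 genes held 34.3%, 34.8% and 30.1% in Tsc1-null EV lungs, against 27.8%, 28.6% and 27.1% in WT EV lungs. The groups did not overlap in this share. It includes Cd63, which separated the groups by itself, so it is not independent of that separation, and it was not tested.

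**Figure D1:**
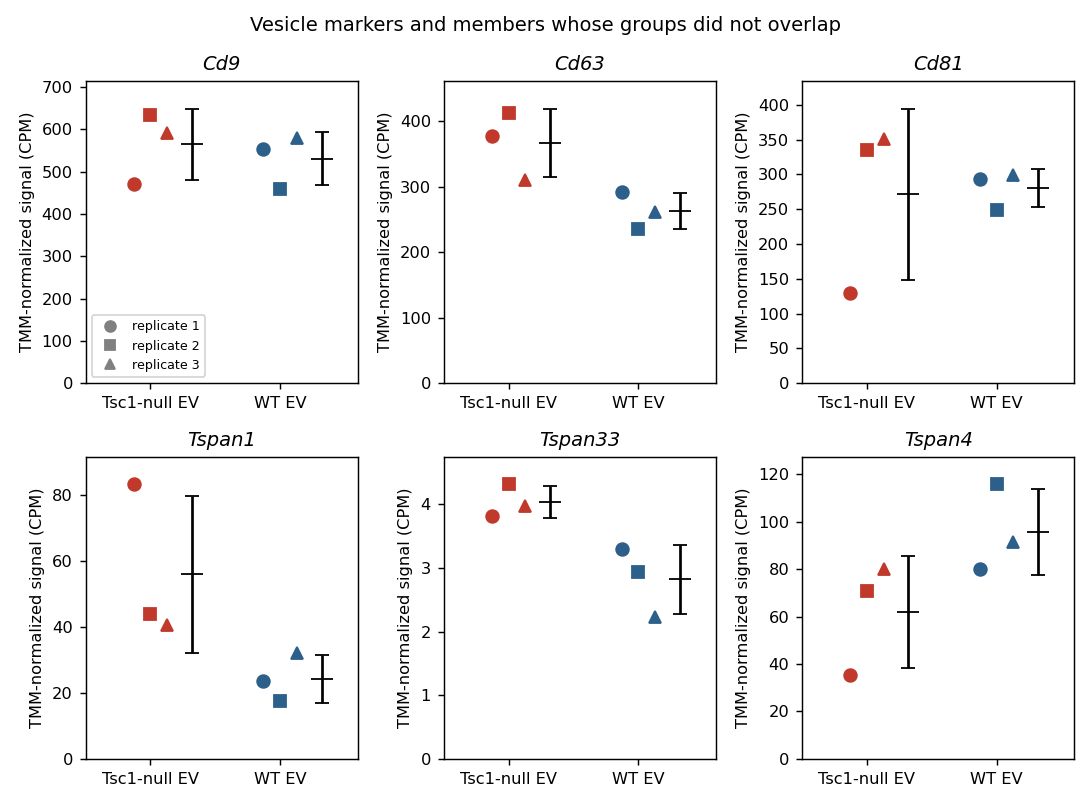
Signal in each lung (TMM-normalized CPM, linear axes from 0) of the vesicle markers Cd9, Cd63 and Cd81 and of the other members whose groups did not overlap, with Tsc1-null EV lungs in red and WT EV lungs in blue, shapes for replicates and black bars for mean ± SD (n = 3). The red points of Cd63, Tspan1 and Tspan33 all lie above the blue ones and those of Tspan4 all lie below, while in Cd81 the lowest red point, at 130.3 CPM, lies apart from the other 2.

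Marker genes of cell types known to hold much CD63 were read in the same lungs. The 7 alveolar type 2 markers summed to 21372 to 42667 CPM in Tsc1-null EV lungs and 24015 to 31664 CPM in WT EV lungs. All 7 had a log2 fold above 0, and Sftpc, at 13094.5 to 29628 CPM over the lungs, was most of the sum. The 7 macrophage markers summed to 139 to 278 CPM in Tsc1-null EV lungs and 189 to 223 CPM in WT EV lungs, with 4 of 7 above 0. The 5 platelet markers summed to 73.0 to 101 CPM in Tsc1-null EV lungs and 99.8 to 119.9 CPM in WT EV lungs, with 0 of 5 above 0. The 2 tested mast cell and basophil markers summed to 85.4 to 144 CPM in Tsc1-null EV lungs and 144 to 170.0 CPM in WT EV lungs, with 0 of 2 above 0. Nearly all of that sum was Kit, at 84.0, 79.4 and 140.3 CPM in Tsc1-null EV lungs, against 158, 139 and 163 CPM in WT EV lungs, while the untested mast cell and basophil markers Cpa3, Mcpt8, Fcer1a and Ms4a2 lay at or under 1.44 CPM in every lung. The lowest alveolar type 2, macrophage and platelet sums were all in Tsc1-null EV replicate 1. That lung also had the highest sums of ciliated airway and club cell markers, at 1686 and 107652 CPM. The part of any of these cell types in the Cd63 values was not tested. Cd63 is a protein-coding gene on the plus strand of chromosome 10, from 128900989 to 128912822 (mm10, GENCODE M21). Of its 50-base words 11.1% occur in transcripts of another gene, most of them in the pseudogene Cd63-ps (9.70%), so reads of the pseudogene could not always be told from Cd63.

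Per length, Cd9 was the most abundant member in the lung and Tspan10 the least. Cd9 averaged 268 CPM per kilobase of merged exons over the 6 lungs, above 99.0% of the 13472 tested genes with an annotated length. Tspan13 followed at 143 CPM per kilobase and Cd81 at 96.0. Tspan7 at 86.3, Cd63 at 85.5, Tspan8 at 82.2, Cd151 at 76.8 and Tspan31 at 56.4 CPM per kilobase completed the 8 highest. The range of Cd9 over the lungs lay wholly above that of Tspan13, but from Tspan13 to Tspan2, the next after Tspan31 at 52.7 CPM per kilobase, each neighbour in the order overlapped the next. Over the whole order, 20 of the 26 neighbouring pairs overlapped. In plain CPM, 11 members averaged at least 100, 12 lay between 10 and 100 and 4 lay under 10. The 4 were Cd37, Tspan33, Tspan32 and Tspan10. Tspan10 had 0, 1 and 2 reads in Tsc1-null EV lungs and 0, 1 and 1 read in WT EV lungs, so it was not tested and no difference was detectable at this depth. With the longest transcript as the length the 8 highest were the same genes, and with the median transcript length 6 of the 8 were.

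**Figure D2:**
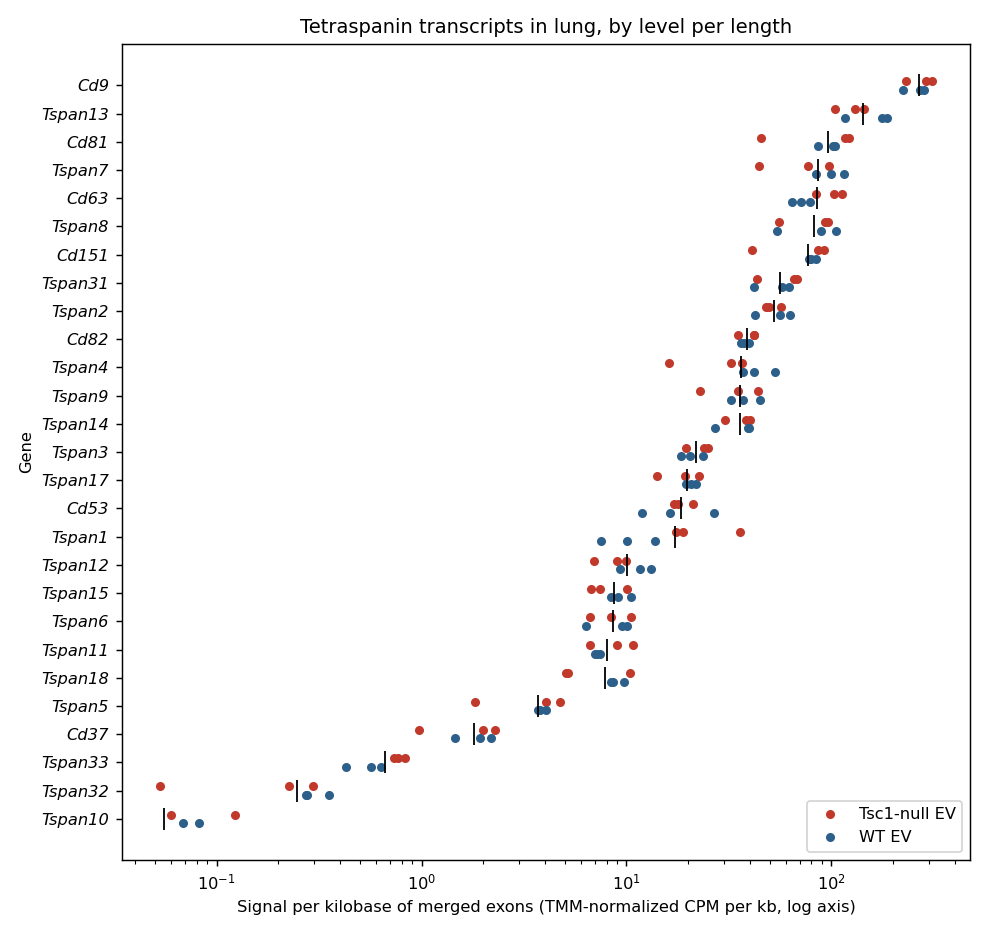
Level of the 27 members per length (TMM-normalized CPM per kilobase of merged exons, log axis), 1 point per lung with Tsc1-null EV in red above WT EV in blue and a black tick at the mean over 6 lungs. Cd9 stands highest at 268 CPM per kilobase and Tspan10 lowest, its lungs without a read being left off the log axis.

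Across the family, no member passed when Tsc1-null EV lungs were set against WT EV lungs, and 0 of the 14159 tested genes did by limma at an adjusted p under 0.05 (0% called). At an unadjusted p under 0.05 stood 3 of the 26 tested members, Tspan1, Cd63 and Tspan4, against 6.57% of all tested genes (930). On the recovered reads edgeR called 0 genes at an adjusted p under 0.05 (6.82% unadjusted, 966 genes) and DESeq2 called 14 of 9487 with an adjusted p, or 0.148% (6.71% unadjusted, 949 genes), none of them a member. Of the members 3 lay above every WT EV lung in all Tsc1-null EV lungs (6.86% of all genes) and 1 below every WT EV lung (6.22%). Together that is 4 of 26, or 15.4%, beside 13.1% of all genes, a share near the background. Of the 26 members 10 had a log2 fold above 0, against 47.3% of all genes, and the median log2 fold was -0.09, against -0.02 over all genes. Without Tsc1-null EV replicate 1 the number above 0 was 19 with a median of 0.15, without WT EV replicate 2 it was 6 with a median of -0.21, and without both it was 13 with a median of -0.01, where 49.5% of all genes were above 0. Limma called 25 genes without both (0.177%), none of them a member. With a weight estimated for each library limma called 7.42% of all genes (27.9% unadjusted) and 5 of the 26 members. Of these Cd63, Tspan11 and Tspan33 lay above 0 and Tspan12 and Tspan18 below. That fit rested mostly on Tsc1-null EV replicate 2 and WT EV replicate 3, weighted 3.95 and 4.19, against 0.21 to 0.93 for the other lungs.

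**Figure D3:**
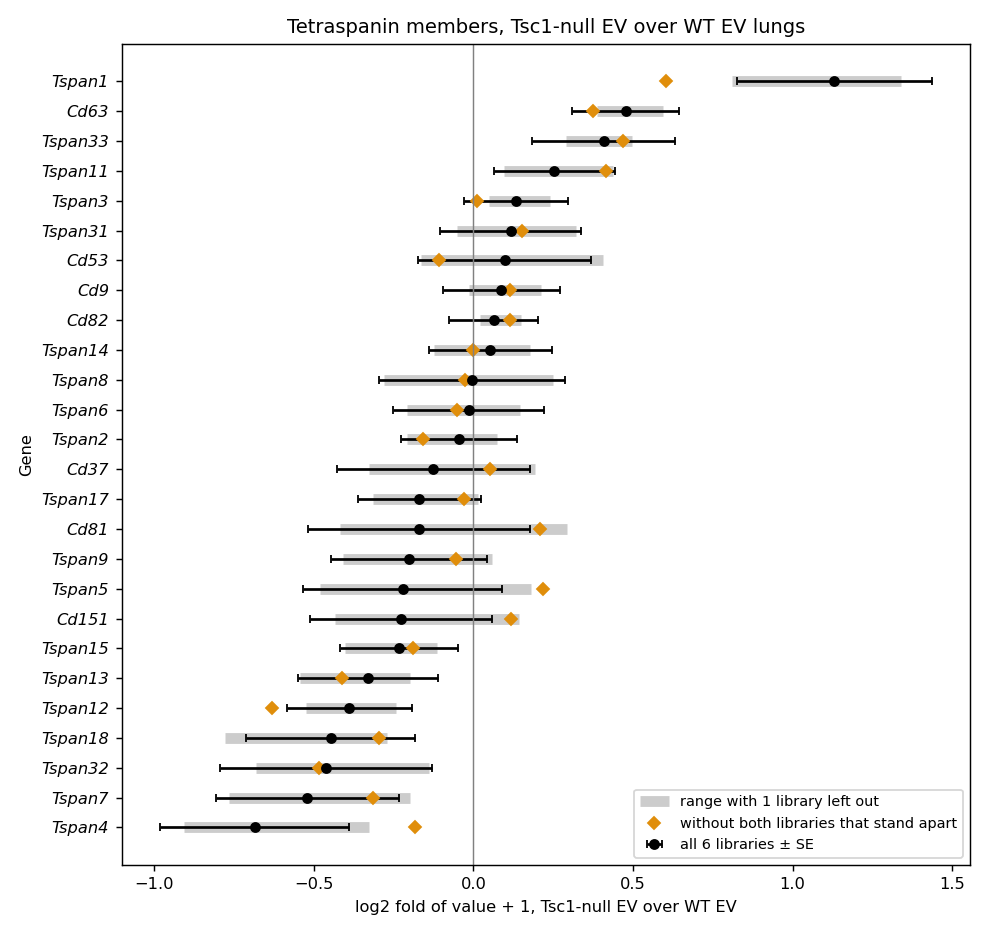
Log2 fold of value + 1 of the 26 tested members, Tsc1-null EV over WT EV, with black points and bars for all 6 libraries ± SE, grey bands for the range with 1 library left out and orange diamonds for the fit without both libraries that stand apart. Tspan1 lies highest at 1.13 and Tspan4 lowest at -0.69, and the grey bands of 13 members cross 0.

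Tspan1, a tetraspanin of epithelial cells, had the highest fold of the family. It had 83.2, 44.0 and 40.4 CPM in Tsc1-null EV lungs, against 23.5, 17.5 and 31.96 CPM in WT EV lungs. The groups did not overlap, and the highest value was in Tsc1-null EV replicate 1. The means were 55.9 ± 23.7 CPM and 24.3 ± 7.27 CPM (SD, n = 3 each), a log2 fold of 1.13 ± 0.31 (SE) with a 95% interval from 0.43 to 1.83 (limma adjusted p = 0.721). It was 0.60 without both libraries that stand apart (limma adjusted p = 0.233) and 0.81 to 1.34 with 1 library left out. Of the markers of ciliated airway cells 7 of 7 had a log2 fold above 0, with a summed level of 902 to 1686 CPM in Tsc1-null EV lungs, against 690 to 961 CPM in WT EV lungs. Their mean log2 deviation from the WT EV mean was 1.28, 0.35 and 0.23 in Tsc1-null EV lungs, against 0.13, -0.26 and 0.13 in WT EV lungs. Club cell markers summed to 70387 to 107652 CPM in Tsc1-null EV lungs and 53845 to 77406 CPM in WT EV lungs, with 4 of 5 above 0. The part of these cells in the Tspan1 values was not tested.

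The TspanC8 members Tspan5, Tspan10, Tspan14, Tspan15, Tspan17 and Tspan33 escort the sheddase ADAM10 out of the endoplasmic reticulum and steer its choice of substrates. Of the 5 tested, 2 had a log2 fold above 0 and 3 below. Tspan33 had 3.81, 4.31 and 3.98 CPM in Tsc1-null EV lungs, against 3.29, 2.94 and 2.22 CPM in WT EV lungs. The groups did not overlap, but only 19, 40 and 36 reads stood behind the Tsc1-null EV values and 27, 20 and 18 behind the WT EV values, a counting error of 15.8% to 23.6% per lung. This gave a log2 fold of 0.41 ± 0.22 (limma adjusted p = 0.741), and 0.47 without both libraries that stand apart. Tspan14, the most abundant of the 6 per length, had a log2 fold of 0.05 ± 0.19 and overlapped. Tspan15 and Tspan17 had log2 folds of -0.23 ± 0.18 and -0.17 ± 0.19, also with overlap. Tspan5 had 13.4, 29.8 and 35.0 CPM in Tsc1-null EV lungs, against 27.2, 30.0 and 28.0 CPM in WT EV lungs. Its low value was again in Tsc1-null EV replicate 1, and the log2 fold of -0.22 ± 0.31 became 0.22 without both libraries that stand apart. Adam10 itself averaged 112 CPM in Tsc1-null EV lungs and 117 CPM in WT EV lungs, with a log2 fold of -0.05 ± 0.18.

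The sequence around the start of transcription in the RefSeq table is shown for Cd63, Tspan1 and Tspan33, since these are the members whose Tsc1-null EV lungs all lay above the WT EV lungs. The Cd63 window surrounds the start at 128909345, 8.36 kb inside the gene as GENCODE M21 gives it above, so it is not the window at the gene's first base. The sequences are RefSeq promoters of build GRCm38.p6, from 250 bases before to 50 bases after the start, and capitals mark CCAAT, and also the GC box GGGCGG, found on either strand.
Cd63 (chr10:128909095-128909394, plus strand): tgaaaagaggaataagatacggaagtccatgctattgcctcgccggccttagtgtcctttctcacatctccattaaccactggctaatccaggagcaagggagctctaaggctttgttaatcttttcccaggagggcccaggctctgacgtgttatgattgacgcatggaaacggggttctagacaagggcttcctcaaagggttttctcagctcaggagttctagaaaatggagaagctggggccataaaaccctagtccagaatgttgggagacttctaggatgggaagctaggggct
Tspan1 (chr4:116167549-116167848, minus strand): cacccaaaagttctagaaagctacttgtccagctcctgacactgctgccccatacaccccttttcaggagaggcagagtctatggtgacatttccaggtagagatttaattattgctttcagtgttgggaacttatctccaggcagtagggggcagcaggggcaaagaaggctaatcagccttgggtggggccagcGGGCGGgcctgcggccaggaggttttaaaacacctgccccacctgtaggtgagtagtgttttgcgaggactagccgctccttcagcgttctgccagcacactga
Tspan33 (chr6:29693964-29694263, plus strand): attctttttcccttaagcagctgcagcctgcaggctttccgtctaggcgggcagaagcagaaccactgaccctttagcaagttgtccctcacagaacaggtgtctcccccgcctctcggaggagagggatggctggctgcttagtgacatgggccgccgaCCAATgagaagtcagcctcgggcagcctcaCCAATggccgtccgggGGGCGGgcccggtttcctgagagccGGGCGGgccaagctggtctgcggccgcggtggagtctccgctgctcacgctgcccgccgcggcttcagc
The Tspan33 window holds 4 of these motifs, at 90, 60, 44 and 19 bases before the start. The Tspan1 window holds 1, a GGGCGG 54 bases before the start, and the Cd63 window holds 0. Their GC content was 49.3% for Cd63, 54.0% for Tspan1 and 65.0% for Tspan33. Promoter entries were found for 26 of the 27 members. A member counted as holding a motif if any of its entries did, while the share of all promoters was taken over single entries. GGGCGG, the GC box, was present for 14 of the 26, against 35.7% of 32851 promoters, and CCAAT for 9 of the 26, against 37.4%. The E-box CACGTG was present for Cd37 and Tspan4 alone among the members, against 7.15% of promoters, and TATAAA for Cd81 and Tspan12 alone, against 13.6%. Both strands were searched, and no motif overlapped another in the 3 windows shown.

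Members tied to adhesion and migration had low values in Tsc1-null EV replicate 1. These are Cd151, which binds laminin-binding integrins, Cd82, which restrains metastasis in several cancers, Tspan4, which forms the migrasomes left behind by migrating cells, Tspan8, a tetraspanin of epithelial and tumour vesicles, and Tspan9, abundant in platelets. Of the 5, 1 had a log2 fold above 0 and 4 below. Tspan4 had 35.3, 70.8 and 79.9 CPM in Tsc1-null EV lungs, against 80.3, 115.8 and 91.3 CPM in WT EV lungs. The groups did not overlap, but the highest Tsc1-null EV lung and the lowest WT EV lung lay side by side. Tspan4 had a log2 fold of -0.69 ± 0.30 (limma adjusted p = 0.721), -0.33 without Tsc1-null EV replicate 1 and -0.18 without both libraries that stand apart. Tspan4 overlaps Chid1 on the opposite strand on chromosome 7, and 10.9% of its 50-base words lie in Chid1 transcripts. Chid1 had a log2 fold of 0.22 ± 0.18.

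Cd151 had 113, 236 and 252 CPM in Tsc1-null EV lungs, against 232, 213 and 218 CPM in WT EV lungs. As in Cd81, the first Tsc1-null EV lung was far below all others and the other 2 lay above all WT EV lungs. The log2 fold was -0.23 ± 0.28, and 0.12 without both libraries that stand apart. Cd82, with the smallest SE of the log2 fold among the 26 tested members, had 105, 126 and 126 CPM in Tsc1-null EV lungs, against 119.7, 109 and 113 CPM in WT EV lungs. Its groups overlapped, with a log2 fold of 0.06 ± 0.14 and a 95% interval from -0.26 to 0.38. Tspan8 had 94.6, 159 and 164 CPM in Tsc1-null EV lungs, against 151, 92.0 and 179 CPM in WT EV lungs. The low lung of each group was the library that stands apart, and the log2 fold was -0.0044 ± 0.29. Tspan9 had a log2 fold of -0.20 ± 0.24 with overlap, in lungs whose platelet markers were given above. Cd151 and Tspan4 are neighbours on chromosome 7, with 3.77 kb between them, and Tspan9 and Tspan11 on chromosome 6, with 7.42 kb between them. The neighbours had log2 folds of -0.23 and -0.69, and of -0.20 and 0.25.

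The members with known vascular roles both lay below 0. Tspan12, a partner of FZD4 in Norrin signalling of vessels, had 33.1, 23.0 and 29.8 CPM in Tsc1-null EV lungs, against 43.8, 30.9 and 38.6 CPM in WT EV lungs. The groups overlapped through WT EV replicate 2, which lay below the first Tsc1-null EV lung. The log2 fold was -0.39 ± 0.20 (limma adjusted p = 0.721) and -0.63 without both libraries that stand apart. Tspan18, which supports calcium entry in endothelium, had 41.3, 42.5 and 84.6 CPM in Tsc1-null EV lungs, against 68.4, 70.3 and 79.7 CPM in WT EV lungs. The first 2 Tsc1-null EV lungs were low and the third was the highest of all, with a log2 fold of -0.45 ± 0.26. The fold of Tspan18 was -0.27 without Tsc1-null EV replicate 1, -0.29 without replicate 2, -0.78 without replicate 3 and -0.29 without both libraries that stand apart. Of 9 endothelial markers 0 had a log2 fold above 0, and they summed to 1871 to 3520 CPM in Tsc1-null EV lungs and 2831 to 3760 CPM in WT EV lungs. Their part in the Tspan12 and Tspan18 values was not tested.

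The leukocyte members differed in level, Cd53 lying above 81.2% of tested genes per length, Cd37 above 23.6% and Tspan32 above 1.98%. Cd53, found on most white blood cells, had 29.9, 36.7 and 31.2 CPM in Tsc1-null EV lungs, against 46.8, 20.7 and 28.4 CPM in WT EV lungs. The Tsc1-null EV lungs lay inside the wide spread of the WT EV lungs, with a log2 fold of 0.10 ± 0.27, and -0.11 without both libraries that stand apart. Cd37, most abundant on mature B cells, had 3.41, 7.01 and 8.06 CPM in Tsc1-null EV lungs, against 7.68, 5.14 and 6.79 CPM in WT EV lungs. Its groups overlapped too, with a log2 fold of -0.13 ± 0.30, and 0.051 without both. Tspan32, a regulator of blood cells, had between 3 and 17 reads per lung and a log2 fold of -0.46 ± 0.33. At this depth the fold of Tspan32 ran from -0.68 without Tsc1-null EV replicate 2 to -0.14 without Tsc1-null EV replicate 3, and was -0.87 with a pseudocount of 0.1. General leukocyte markers summed to 247 to 392.4 CPM in Tsc1-null EV lungs and 272 to 383 CPM in WT EV lungs, with 3 of 6 above 0.

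The remaining members have roles outside these groups or less settled ones. Tspan7, known from neurons, had the largest mean signal of the family, at 313, 542 and 686 CPM in Tsc1-null EV lungs, against 708, 596 and 815 CPM in WT EV lungs. The first Tsc1-null EV lung was lowest, and the groups overlapped through WT EV replicate 2. The log2 fold was -0.52 ± 0.29 (limma adjusted p = 0.741), and -0.32 without both libraries that stand apart. Tspan13 had 257, 322 and 356 CPM in Tsc1-null EV lungs, against 465, 289.5 and 437 CPM in WT EV lungs. WT EV replicate 2 again lay among the Tsc1-null EV lungs, with a log2 fold of -0.33 ± 0.22, and -0.41 without both libraries that stand apart. Tspan11 had 35.5, 57.5 and 47.7 CPM in Tsc1-null EV lungs, against 38.3, 37.3 and 39.7 CPM in WT EV lungs. The first Tsc1-null EV lung was the lowest and the other 2 the highest, with a log2 fold of 0.25 ± 0.19, and 0.42 without both libraries that stand apart. Tspan2, Tspan3, Tspan6 and Tspan31 overlapped, with log2 folds from -0.05 for Tspan2 to 0.13 for Tspan3. Tspan31 had 95.2, 148 and 144 CPM in Tsc1-null EV lungs, against 136, 92.4 and 126 CPM in WT EV lungs. It overlaps Cdk4 on the opposite strand, and 26.5% of its 50-base words occur in Cdk4 transcripts, so reads of the 2 genes may be mixed. Cdk4 had a log2 fold of 0.11 ± 0.18.

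The libraries that stand apart held the lowest lung for most members. Tsc1-null EV replicate 1 was the lowest of the 6 lungs for 13 of the 26 tested members and WT EV replicate 2 for 10, together 23. Over all tested genes these libraries were lowest for 30.4% and 23.3%. The same libraries were highest for 1 and 2 of the members, against 25.4% and 22.2% of all tested genes. Summed over the 27 members the signal was 2854, 3966 and 4155 CPM in Tsc1-null EV lungs, against 4095, 3295 and 4211 CPM in WT EV lungs. The lowest sum of each group was in the library that stands apart. Cd63, Tspan1, Tspan3 and Tspan33 went the other way in Tsc1-null EV replicate 1, where each was above every WT EV lung. The median coefficient of variation of the tested members was 23.1% among Tsc1-null EV lungs and 16.1% among WT EV lungs.

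**Figure D4:**
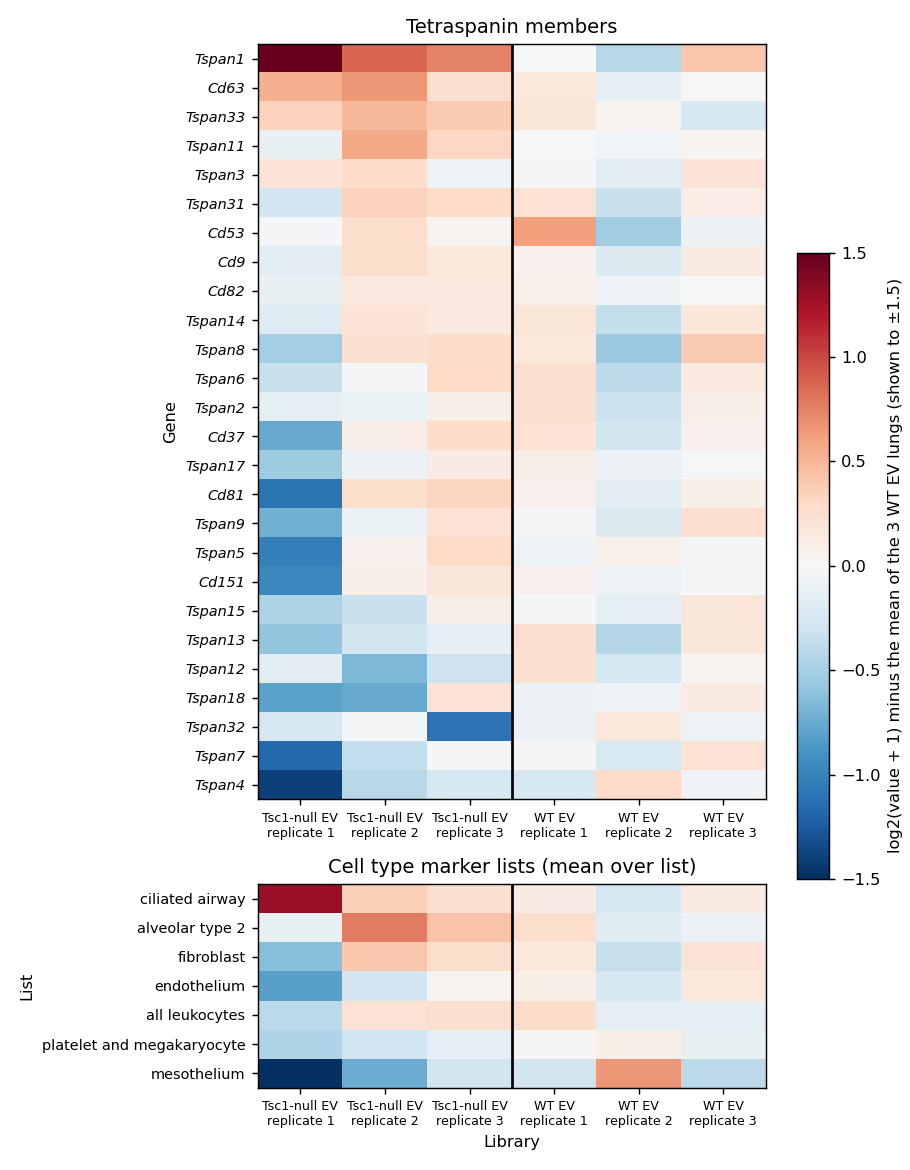
Deviation of each lung from the mean of the 3 WT EV lungs, as log2(value + 1), for the 26 tested members (upper block) and as the mean over cell type marker lists (lower block), with Tsc1-null EV lungs left of the line. Most members are blue in Tsc1-null EV replicate 1 and pale blue in WT EV replicate 2, whereas Tspan1, Cd63 and Tspan33 are red in all 3 Tsc1-null EV lungs.

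The genes around the tetraspanins were described with lists drawn up by textbook role. Of 19 tested partners of tetraspanins 0 passed and 13 were above 0, their median log2 fold being 0.05. Itgb4, the integrin beta chain that CD151 joins in hemidesmosomes, had 30.9, 26.8 and 25.7 CPM in Tsc1-null EV lungs, against 20.7, 16.5 and 20.2 CPM in WT EV lungs. The groups did not overlap, and the log2 fold was 0.52 ± 0.17 (limma adjusted p = 0.721). Epcam, Cd44 and Igsf8, direct or membrane-domain partners, had log2 folds of 0.56 ± 0.26, 0.38 ± 0.19 and 0.27 ± 0.20, each with overlap. Of 28 genes of vesicle formation and release 0 passed and 15 were above 0, with a median of 0.01. Sdcbp, which encodes syntenin, the adaptor that loads CD63 into vesicles, had 426, 483 and 444 CPM in Tsc1-null EV lungs, against 512, 261 and 415 CPM in WT EV lungs. The Tsc1-null EV lungs lay within the range of the WT EV lungs, with a log2 fold of 0.24 ± 0.24. Vps36, of the ESCRT-II complex, had every Tsc1-null EV lung above every WT EV lung, with a log2 fold of 0.28 ± 0.14 (limma adjusted p = 0.721). Of 14 late endosome and lysosome membrane genes, the compartment of CD63, 0 passed and 7 were above 0, with a median of -0.01. Npc2, a cholesterol carrier of lysosomes, and Lamp2 had log2 folds of 0.37 ± 0.20 and 0.25 ± 0.25 with overlap. Ctns, the lysosomal cystine exporter, was lower in all 3 Tsc1-null EV lungs, with a log2 fold of -0.28 ± 0.16 (limma adjusted p = 0.745). The groups did not overlap for 1 gene of each list, Itgb4, Vps36 and Ctns, against 13.1% of all tested genes. Over all tested genes the median log2 fold was -0.02, and 47.3% lay above 0.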

How the data were processed

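RNA-seq of 6 mouse lungs was analysed, 3 per group by the treatment label. The authors deposited 1 table of TMM-normalized signal, per the name of the table, with 1 column per library and totals from 964931 to 1022663. The submitters' processing notes list Bowtie2 2.1.0, RSEM 1.2.15, edgeR and mm10. Whether counting used strand is not given in the sources, so a member and an antisense neighbour may share reads. Dividing each column by its smallest step gave whole reads for 100% of values (within 0.001), and these were also tested as counts.

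Rows with a mean signal under 1 were dropped, and log2(value + 1) was tested two-sided by limma 3.58.1 (R 4.3.3) with an intensity trend and Benjamini-Hochberg adjustment over all 14159 genes at 0.05. The pseudocount understates changes of low genes. Alternatives were other pseudocounts (0.5, 0.1), filters (none, 5), scalings (common median, quantile), robust shrinkage, sample weights, edgeR 4.0.16 or DESeq2 1.42.0 on the reads, and libraries left out. A term for both libraries that stand apart, and libraries left out for the lists, were added after seeing the data. Tested on simulated data of 14159 genes, limma recovered 26% of changes of 1 (log2) and 87% of changes of 2, and 10 calls were false. The simulated counts were drawn for each gene separately, with no libraries that stand apart, so recovery in these lungs may differ. Lengths, positions and 50-base words came from GENCODE M21. All members could be named. Naming in the other lists went by the smallest unadjusted p, at most 4 genes a list, plus the highest-expressed gene of a cell type list. Outside that rule Sdcbp, Adam10, Chid1, Cdk4, Malat1, Nkx2-1, Cpa3, Mcpt8, Fcer1a and Ms4a2 were named after their values were seen. So were the relatives Upk1a, Upk1b, Rom1 and Prph2. The members, lists and tests were chosen with earlier results of these data known, and they were tested for no enrichment.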

Additional observations from a re-analysis of the deposited data

How the results depend on the processing

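No gene was called by limma at either other pseudocount, without a filter, with a filter at 5, with a common median, quantile normalization or robust shrinkage, nor by edgeR. Sample weights gave 1050 calls, DESeq2 14 and the fit without both libraries that stand apart 25. The added term for those libraries gave 1, and leaving out 1 library gave 0 to 2. The weights were 3.95 for Tsc1-null EV replicate 2 and 4.19 for WT EV replicate 3, against 0.21 to 0.93 for the other lungs. The weighted fit thus rested mostly on 1 lung of each group. Under sample weights 5 members passed, Cd63 (log2 fold 0.57, limma adjusted p = 0.0236), Tspan33 (0.61), Tspan11 (0.47), Tspan12 (-0.65) and Tspan18 (-0.69). No member passed under the other alternatives, but DESeq2 gave no adjusted p for Cd37, Tspan32 and Tspan33.

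Of the 26 tested members 13 kept their direction under every alternative run. They were Cd63, Tspan1, Tspan33, Tspan11, Tspan3, Cd82, Tspan4, Tspan7, Tspan12, Tspan13, Tspan15, Tspan18 and Tspan32. The filters, robust shrinkage and the added term leave the log2 fold of a kept gene unchanged, so they could not turn a direction. Leaving out 1 library at a time gave the same 13. Without both libraries that stand apart the direction turned for Cd81 (0.21), Cd151 (0.12), Tspan5 (0.22), Cd37 (0.051) and Cd53 (-0.11). With sample weights it turned for Cd81 (0.14), Cd151 (0.072), Tspan5 (0.073) and Cd37 (0.029), and with quantile normalization for Tspan8 (0.021). With 1 library left out the log2 folds ran from -0.42 to 0.29 for Cd81, -0.013 to 0.21 for Cd9, -0.43 to 0.14 for Cd151, -0.48 to 0.18 for Tspan5, -0.33 to 0.19 for Cd37, -0.17 to 0.40 for Cd53, -0.28 to 0.25 for Tspan8, -0.41 to 0.057 for Tspan9, -0.21 to 0.14 for Tspan6, -0.21 to 0.074 for Tspan2, -0.32 to 0.014 for Tspan17, -0.12 to 0.18 for Tspan14 and -0.050 to 0.32 for Tspan31. The cause of these turns was not tested. Of the members that kept their direction, the folds ran from -0.76 to -0.20 for Tspan7, -0.54 to -0.20 for Tspan13, -0.52 to -0.24 for Tspan12, -0.40 to -0.11 for Tspan15, 0.096 to 0.44 for Tspan11, 0.049 to 0.24 for Tspan3, 0.29 to 0.50 for Tspan33 and 0.019 to 0.15 for Cd82.

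With 1 library left out, 6 to 19 members lay above 0, the median running from -0.21 to 0.15. For partners this was 7 to 16 genes with a median from -0.066 to 0.27, for vesicle formation 11 to 20 genes, and for late endosome and lysosome membrane 4 to 9 genes. No paired analysis was possible because the labels number the mice separately and no number is shared between the groups. Depth limits Tspan10, Tspan32 and Tspan33, and with 3 lungs a group the intervals above leave folds of the size of Cd63 within reach for most members.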

Other observations

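Relatives of the tetraspanins outside the Tspan and Cd symbols were measured as well. Upk1b, a uroplakin made by mesothelium and urothelium, had 2.00, 15.0 and 24.5 CPM in Tsc1-null EV lungs, against 19.1, 43.8 and 18.5 CPM in WT EV lungs, with a log2 fold of -1.28 ± 0.71 (limma adjusted p = 0.741). The lowest value was in Tsc1-null EV replicate 1 and the highest in WT EV replicate 2, the libraries that stand apart. The remaining lungs of the groups overlapped. The 7 mesothelial markers, including Upk1b, summed to 237 to 697 CPM in Tsc1-null EV lungs and 633 to 1203 CPM in WT EV lungs. With all 6 libraries 1 of 7 was above 0 and their median log2 fold was -1.35. Without both libraries that stand apart 3 of 7 were above 0, with a median of -0.08. Upk1a, the other uroplakin of the family, had 8.02, 3.77 and 4.42 CPM in Tsc1-null EV lungs, against 5.37, 5.29 and 6.79 CPM in WT EV lungs, and the groups overlapped. Rom1, known from photoreceptor discs, had a log2 fold of -0.19 ± 0.22. Prph2, its partner there, had 0 reads in all 6 lungs, which allows up to 3 counts over the 6 libraries, or a level of 0.0646 CPM over all their reads, and covers counting error only.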
